A study of Mus musculus with 6 samples.

Results

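The genes described here encode the proteins of the mitochondrial ribosome, the mitoribosome. They were taken as every non-control probe whose transcript accession matches a RefSeq mouse gene named Mrpl or Mrps followed by a number. On this array 78 genes met that rule, with 100 probes, out of 39429 non-control probes. For 77 of them a probe stood well above background on 3 or more of the 6 arrays, out of 22810 genes tested. The exception was Mrpl21, whose probe was well above background on 0 of 6 arrays. Of the 22810 genes tested, 15544 had a RefSeq gene name. The others were array identifiers without a match, each counted as a gene in all shares below.

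Total RNA of liver was hybridised to 6 one-colour Agilent arrays. The first group was 3 samples from wild-type (WT) mice and the second was 3 samples from mice labelled Sec15 KO, a knockout of Sec15, which is part of the exocyst, a complex of vesicle secretion. The mice of both groups were 6-week-old males that received no treatment. The labels give no strain, allele, promoter or Cre line for the knockout and do not say that each sample came from its own animal, so the spread behind each p-value is that between samples and could be technical. Every level below is a log2 signal relative to the array's 75th percentile, every difference is KO minus WT on that log2 scale, and p-values are from limma with Benjamini-Hochberg adjustment across the 22810 genes. In whole liver, a change in the share of a cell type and a change in RNA per cell cannot be told apart.

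The mitoribosome translates the few messenger RNAs encoded by mitochondrial DNA, all of which specify membrane subunits of the respiratory chain and ATP synthase. Its ribosomal RNAs come from mitochondrial DNA, while its proteins are encoded in the nucleus, made in the cytosol and imported. Some of these proteins have counterparts in bacterial ribosomes, and others are found only in mitochondria. NRF1 and GABPA, an ETS factor, are transcription factors known to act at promoters of many nuclear genes for mitochondrial proteins.

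Promoter windows from 250 bases before to 50 bases after each start were available from RefSeq (GRCm38.p6) for 69 of the 78 genes, as 75 windows. The NRF1 motif, read on both strands, was present in 17.3% of the windows against 4.6% of all 32851 windows in the table. The ETS letters CCGGAAG (both strands, like all others) were present in 34.7% against 8.86%, and the YY1 letters AAGATGG in 17.3% against 6.34%. TATAAA was present in 6.67% against 13.6%. Any of the first 3 was present in 57.3% of these windows and 18% of all windows. The median GC content was 58.7% against 52.7%; the NRF1 and ETS letters are rich in G and C, the YY1 letters less so and TATAAA has neither. A match is only a match of letters.

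The windows of 3 genes are shown, with matched letters in capitals. Mrpl57 and Mrps21 rose in KO liver, and Mrpl37 was the one gene that fell. Among the genes that rose, Mrpl57 and Mrps21 were chosen because their windows hold both an NRF1 and an ETS match. Mrpl17 and Mrps26, which did not pass the test, also hold both. Mrpl57 lies on the plus strand at chr14:57825989-57826288, Mrps21 on the minus strand at chr3:95871465-95871764 and Mrpl37 on the minus strand at chr4:107066817-107067116. In Mrpl37 the capitals mark a YY1 match.
Mrpl57: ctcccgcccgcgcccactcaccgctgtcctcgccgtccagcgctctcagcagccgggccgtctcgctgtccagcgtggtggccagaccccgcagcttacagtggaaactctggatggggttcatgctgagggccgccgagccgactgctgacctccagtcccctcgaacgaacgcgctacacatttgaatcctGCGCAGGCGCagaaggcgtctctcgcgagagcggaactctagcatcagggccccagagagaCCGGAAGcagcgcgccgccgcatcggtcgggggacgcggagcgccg
Mrps21: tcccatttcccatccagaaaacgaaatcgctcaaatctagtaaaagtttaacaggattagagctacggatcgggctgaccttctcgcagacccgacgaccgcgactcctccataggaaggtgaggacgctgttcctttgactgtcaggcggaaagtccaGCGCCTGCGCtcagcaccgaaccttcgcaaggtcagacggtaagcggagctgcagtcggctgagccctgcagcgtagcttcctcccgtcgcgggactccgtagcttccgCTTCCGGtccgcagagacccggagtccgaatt
Mrpl37: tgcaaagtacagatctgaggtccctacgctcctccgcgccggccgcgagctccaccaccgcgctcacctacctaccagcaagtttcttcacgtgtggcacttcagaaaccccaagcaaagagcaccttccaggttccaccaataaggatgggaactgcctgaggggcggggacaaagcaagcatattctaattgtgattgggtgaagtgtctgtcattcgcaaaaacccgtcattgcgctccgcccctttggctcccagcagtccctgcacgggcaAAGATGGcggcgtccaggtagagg

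Of the windows of genes that rose, 9 of 18 (50%) held at least 1 of the NRF1, ETS and YY1 matches, against 32 of 55 (58.2%) for genes that did not pass the test. The YY1 letters were in 0 of the 18 windows of genes that rose and in 12 of the 55 others. Over all windows the YY1 share was 6.34%. ETS letters were in 7 of 18 and 18 of 55, against 8.86% of all windows. The 18 windows belong to 18 of the 23 genes that rose. The 55 windows belong to 49 genes, some of which have several. These differences were not tested.

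Several features of the arrays bear on every value below. By scan time, WT 1, WT 2, WT 3 and KO 2 share slide 1, and KO 1 and KO 3 share slide 2. The slides were inferred from scan time alone, so slide below means arrays with a shared scan time. A slide effect and the KO effect can be separated only through KO 2. WT 3 lay between WT 1 and WT 2 for 66.1% of all genes and 75.3% of the mitoribosome genes. For other genes of like brightness the share was 77.3%. WT 1 and WT 2 were each the middle array for 15.3% and 18.6% of all genes. The median distance of WT 3 from the midpoint of the other WT arrays was 0.03 for the mitoribosome genes and 0.06 for all genes. Repeated spots of 1 probe within the WT 3 array had a median SD of 0.11 over 268 probes, a different measure and set of probes. KO 3 was the middle KO array for 58.4% of all genes, 74% of the mitoribosome genes and 66.9% of genes of like brightness. With both WT 3 and KO 3 left out, 0 of 22810 genes passed the adjusted threshold (3737 at an unadjusted p under 0.05). The part of this arrangement in the results was not tested. The deposited names of WT 1 and WT 2 also share a number, so both may come from 1 animal. With their mean counted as 1 sample, 17 mitoribosome genes (22.1%) rose and 1 fell. Of all genes 16.3% then rose and 10.5% fell, and of other genes of like brightness 24.5% rose and 10.8% fell.

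The probe for Exoc6, a mouse gene for Sec15, was well above background on 1 WT and 0 KO arrays and so does not check the labels. A probe for its paralog Exoc6b averaged 0.54 in WT and 0.02 in KO. All 10 listed hepatocyte markers were measured, with a summed linear level of 1840 to 2088 in WT and 1977 to 2341 in KO; 4 of them rose and 0 fell. The summed level of 9 measured erythroid markers was 21.9 to 26.1 in WT and 80.2 to 101 in KO, that of 7 Kupffer cell markers 31.9 to 32.2 and 43.5 to 56.1, and that of 6 endothelial markers 20.7 to 21.4 and 25.8 to 34.2. The sum of 5 neutrophil markers was 6.27 to 6.98 and 8.00 to 14.5, and that of 5 lymphocyte markers 3.19 to 3.29 and 2.02 to 2.39. Of these lists 6 erythroid, 3 Kupffer, 4 endothelial and 3 neutrophil markers rose and 0 fell, while 0 lymphocyte markers rose and 2 fell. Some went against their sum without passing the test: Pecam1 (-0.39, endothelial), Elane (-0.30, neutrophil), and Cd79a (0.23) and Ms4a1 (0.21), both lymphocyte. The erythroid Alas2 differed by 0.02. Over all genes 17.4% rose and 12.2% fell. Of 7 pancreas markers 5 fell and 1 rose (sums 11.2 to 14.8 and 11.5 to 11.7). Their part in the results was not tested. Between 67.27% and 70.32% of probes on the WT arrays and between 64.82% and 65.45% on the KO arrays were well above background.

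Most mitoribosome genes had slightly higher signal in KO liver. Of the 77 measured, 23 rose, 1 fell and 53 did not pass the test. The 23 that rose are 29.9% of the genes, where 17.4% of all genes tested rose, and 26.6% of the 3799 other genes in the same brightness band (mean signal between the lower and upper quartile of the mitoribosome genes). The 1 that fell is 1.3%, where 12.2% of all genes and 11.2% of the band fell. In either direction 29.6% of all genes passed the test. The share that rose is thus close to that of genes of like brightness, and the share that fell is smaller, with neither difference tested.

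The rises were small. They ran from 0.33 (1.26-fold, Mrpl55) to 0.69 (1.62-fold, Mrpl28), with standard errors from 0.09 to 0.18 and adjusted p from 0.0136 to 0.0499. The median difference over the 77 genes was 0.31 (quartiles 0.12 and 0.46), against 0.22 in the band and 0.06 over all genes. The fitted difference was above 0 for 71 genes (92.2%), against 70.3% of the band and 54.6% of all genes. All 3 KO arrays lay above all 3 WT arrays for 45 genes (58.4%), against 47.5% of the band and 30.6% of all genes. The reverse held for 2 genes (2.6%), against 16.8% of the band and 20.2% of all genes. At an unadjusted p under 0.05, 40 of the 77 genes were higher and 2 lower. At that cut 6132 of all 22810 genes (26.9%) were higher and 4257 lower. In the band 1558 of 3799 were higher and 556 lower. Without WT 3 or without KO 3, 0 mitoribosome genes rose, where 1.49% and 2.09% of all genes and 1.79% and 2.63% of the band rose. At an unadjusted p under 0.05 in either direction, 24 (31.2%) and 23 (29.9%) of them differed. At that cut 31.7% and 31.8% of all genes and 37.4% and 37.7% of the band differed. Without WT 2, 1 (1.3%) rose, where 5.2% of all genes and 7.19% of the band rose. Without KO 1, 3 (3.9%) rose, where 6.51% of all genes and 9.29% of the band did. Without WT 1 it was 14 (18.2%), against 15.4% of all genes and 22.5% of the band. Without KO 2 it was 46 (59.7%), against 25.1% of all genes and 38.6% of the band.

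**Figure D1:**
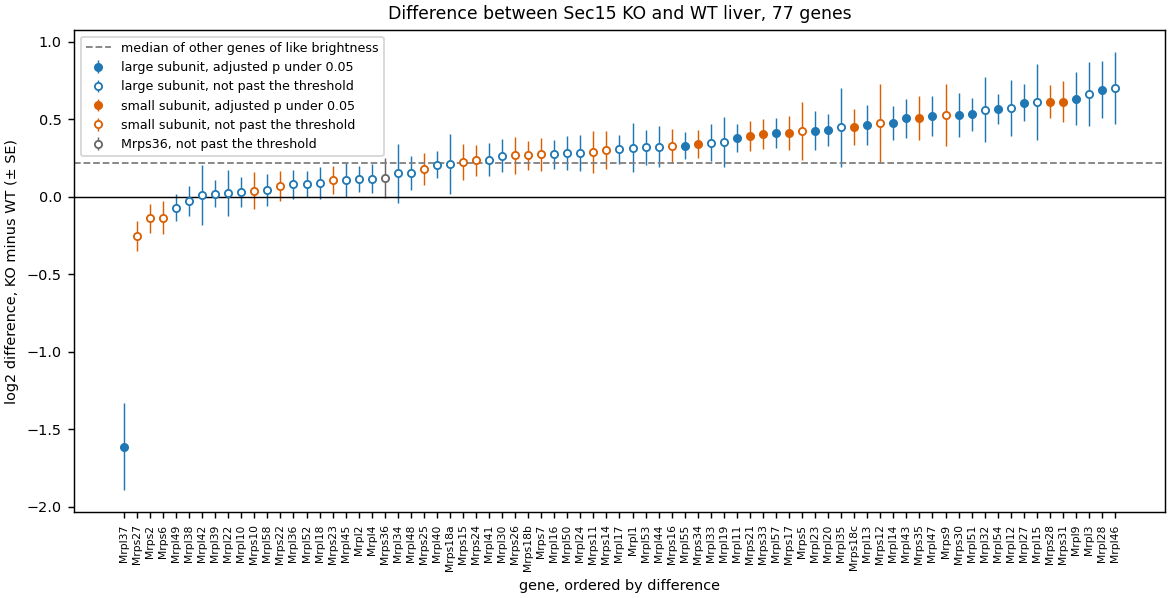
Difference between KO and WT for the 77 mitoribosome genes, with standard errors from the limma fit; filled points have an adjusted p under 0.05. The differences run from -1.61 (Mrpl37) to 0.70 (Mrpl46), and the dashed line marks the median of other genes of like brightness, 0.22.

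The large subunit holds the peptidyl transferase centre, where peptide bonds are made. Of its 50 measured proteins 15 rose (30%) and 1 fell, with a median difference of 0.32. Over all genes 17.4% rose and 12.2% fell, and in the band 26.6% and 11.2%. Mrpl54, found only in mitochondria, had the smallest p among the rises. Its level was 1.45, 1.50 and 1.50 in WT 1 to 3 and 2.12, 1.93 and 2.10 in KO 1 to 3, a rise of 0.57 (SE 0.10, adjusted p = 0.0136). The WT values were close together, and every KO value was higher, with KO 2 the lowest of the 3.

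Mrpl27, the counterpart of a bacterial protein close to the peptidyl transferase centre, was at 3.66, 3.36 and 3.43 in WT and 4.08, 4.00 and 4.20 in KO. It rose by 0.61 (SE 0.12, adjusted p = 0.0184), and the groups did not overlap. A second, dimmer probe of Mrpl27 also rose, by 0.42 (adjusted p = 0.0337 over all probes). Mrpl14 rose by 0.48 (SE 0.11, adjusted p = 0.0270), from 3.72, 3.55 and 3.62 to 4.17, 3.95 and 4.20.

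Mrpl51 and Mrpl57 are proteins of the large subunit that bacteria lack. Mrpl51 was at 3.91, 3.79 and 3.82 in WT and 4.49, 4.22 and 4.41 in KO, a rise of 0.53 (adjusted p = 0.0198). Mrpl57 was at 3.87, 3.70 and 3.79 in WT and 4.16, 4.26 and 4.19 in KO, a rise of 0.41 (adjusted p = 0.0262). KO 2 was the highest of the KO arrays for Mrpl57 and the lowest for Mrpl51. Mrpl20, whose bacterial counterpart acts early in assembly of the large subunit, rose by 0.43 (adjusted p = 0.0304), from 3.32, 3.48 and 3.38 to 3.87, 3.69 and 3.91.

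The stalk of the large subunit, which recruits translation factors, is formed by Mrpl10, Mrpl11 and Mrpl12. Mrpl11, at its base, rose by 0.38 (SE 0.09, adjusted p = 0.0296), from 2.18, 2.16 and 2.20 to 2.62, 2.46 and 2.60. Mrpl12, which is also known to bind the mitochondrial RNA polymerase, was at 2.10, 1.78 and 1.93 in WT and 2.74, 2.16 and 2.63 in KO. Its KO values were all above the WT values, KO 2 by little, and the difference of 0.58 (SE 0.18) did not pass the test (adjusted p = 0.0584). Mrpl10 differed by 0.03 (SE 0.10, adjusted p = 0.803) and by -0.11 after cyclic loess, and the groups overlapped.

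The next 2 groups of proteins, and every further gene outside the naming rule, were chosen after their values were seen. Both groups were picked by hand and may leave out proteins of the site. Over all genes 17.4% rose, and in the band 26.6% did. Of 5 proteins around the exit of the peptide tunnel (Mrpl22, Mrpl23, Mrpl24, Mrpl45, Mrpl47), 2 rose, Mrpl23 by 0.43 and Mrpl47 by 0.52, and the median was 0.28. For Mrpl47 a second probe rose too, by 0.66 (adjusted p = 0.0174 over all probes). Of 6 proteins of the central protuberance (Mrpl18, Mrpl38, Mrpl40, Mrpl46, Mrpl48, Mrpl58), 0 passed the test and the median was 0.12. That group holds Mrpl46, with the largest fitted difference of the 77 genes, 0.70 (SE 0.23, adjusted p = 0.0651). Its levels were -0.64, -1.10 and -0.92 in WT and 0.14, -0.62 and -0.06 in KO, so KO 2 lay just above WT 1 and well below the other KO arrays.

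Mrpl37 was the exception among the 77 genes. This mitochondria-specific protein of the large subunit was at -0.95, -0.53 and -0.74 in WT and -1.86, -2.91 and -2.29 in KO. Every KO array was below every WT array, and KO 2, on the slide of the WT arrays, was the lowest. It fell by 1.61 on the log2 scale, 3.06-fold (SE 0.28, adjusted p = 0.0140), and was the one mitoribosome gene called at 2-fold or more, where 8.66% of all genes were. After normexp background correction with quantile normalisation the difference was -0.86 (adjusted p = 0.0135), under 2-fold. With slide as a blocking term the difference was -2.17 (adjusted p = 0.0243) and -1.60 after cyclic loess (adjusted p = 0.0186). The call ended without WT 2, WT 3 or KO 3 (adjusted p = 0.0531, 0.0655 and 0.0597), on slide 1 alone (adjusted p = 0.0778) and with both WT 3 and KO 3 left out (adjusted p = 0.220). Mrpl37 had a single probe on the array. That probe was dimmer than most of the 77, in decile 4 of all genes by mean signal (10 is the brightest). In that decile 14.6% of genes fell and the median difference was -0.09. Mrps30, a related protein now placed beside it in the large subunit, rose by 0.53 (adjusted p = 0.0399), from 0.90, 0.67 and 0.72 to 1.46, 1.05 and 1.37.

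The small subunit binds the messenger RNA and holds the decoding centre. Of its 26 measured proteins 8 rose (30.8%) and 0 fell, with a median of 0.30. Again 17.4% of all genes rose and 12.2% fell, and 26.6% and 11.2% of the band. At an unadjusted p under 0.05, 13 were higher and 1 lower. At that cut 26.9% of all genes were higher, and in the band 1558 of 3799 were higher and 556 lower. Mrps28, which has a bacterial counterpart, was at 2.82, 2.67 and 2.71 in WT and 3.39, 3.20 and 3.44 in KO, a rise of 0.61 (SE 0.11, adjusted p = 0.0141). Mrps31, found only in mitochondria, was at 2.11, 1.90 and 1.97 in WT and 2.78, 2.39 and 2.67 in KO, a rise of 0.62 (SE 0.13, adjusted p = 0.0237). For both, KO 2 was the lowest KO array and stood above all WT arrays.

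Mrps33, also found only in mitochondria, rose by 0.41 (adjusted p = 0.0295), from 3.37, 3.32 and 3.39 to 3.64, 3.83 and 3.82, here with KO 1 the lowest KO array. Mrps12, the counterpart of a bacterial protein of the decoding centre, was at 1.18, 1.23 and 1.24 in WT and 2.11, 1.13 and 1.84 in KO. KO 2 lay below all WT arrays while KO 1 and KO 3 were well above them, and the difference of 0.47 (SE 0.25, adjusted p = 0.190) turned to -0.09 with the slide as a block. Mrps5, a protein near the messenger RNA path, differed by 0.42 (SE 0.19, adjusted p = 0.132), with overlapping groups. Mrps27 had all KO arrays below all WT arrays but did not pass the test (-0.25, SE 0.10, adjusted p = 0.0973).

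**Figure D2:**
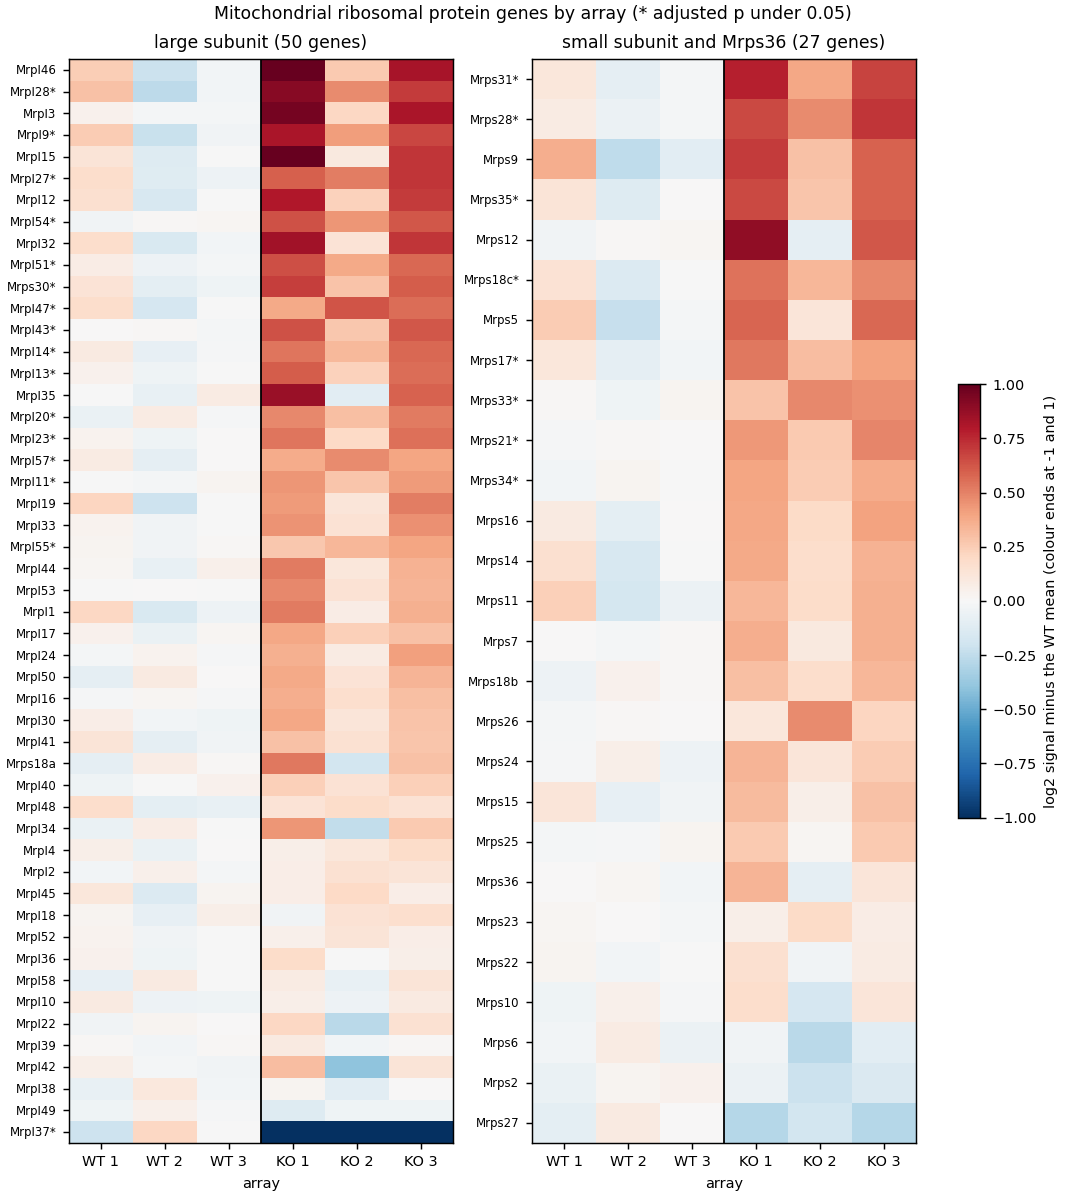
Log2 signal of each mitoribosome gene on each array minus its WT mean, for the large subunit (left) and the small subunit with Mrps36 (right); genes with an adjusted p under 0.05 have an asterisk. KO 1 and KO 3 are red for most genes, KO 2 is paler, and Mrpl37 is blue on all 3 KO arrays.

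Both proteins with a bacterial counterpart and proteins found only in mitochondria included genes that rose, and the kinds were not tested against each other. Of 45 of the first kind 14 rose (31.1%) and 0 fell (median 0.35). Of 31 of the second 9 rose (29%) and 1 fell (median 0.24). Both shares that rose stand beside 17.4% of all genes and 26.6% of the band, where 12.2% and 11.2% fell. The Mrps18 paralogs are related to 1 bacterial protein; Mrps18c is counted as its counterpart, and Mrps18a and Mrps18b, which sit at other sites, as found only in mitochondria. Mrps18c rose by 0.45 (adjusted p = 0.0351), while Mrps18b (0.27, adjusted p = 0.0728) and Mrps18a (0.21, adjusted p = 0.416) did not pass the test. For Mrps18a, which sits in the large subunit, the difference was -0.18 with the slide as a block. Differences between the paralogs were not tested.

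Mrps36 carries a ribosomal name but is a component of the 2-oxoglutarate dehydrogenase complex. It differed by 0.12 (SE 0.13, adjusted p = 0.478), and by -0.05 after cyclic loess. Mrpl58 (Ict1), a peptidyl-tRNA hydrolase that rescues stalled ribosomes and is also a large subunit protein, differed by 0.05 (SE 0.10, adjusted p = 0.754) and by -0.22 after cyclic loess. Mrpl52, with the brightest probe, differed by 0.08 (adjusted p = 0.475) and by -0.20 after cyclic loess. Mrpl35, with the dimmest, differed by 0.45 (adjusted p = 0.210), with KO 2 below all WT arrays. Differences this small depend on the scaling: the median over all genes was 0.06 as scaled, 0.18 with each array centred on its median and -0.02 after cyclic loess.

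The KO arrays were not alike. Relative to the WT mean, the median over the mitoribosome genes was 0.38 on KO 1 and 0.35 on KO 3, both on slide 2, and 0.15 on KO 2, on the slide of the WT arrays. The medians of the other genes in the band, on KO 1, KO 3 and KO 2, were 0.23, 0.26 and 0.15. For KO 1 and KO 3, slide and sample cannot be told apart. On KO 1, 65 of 77 genes (84.4%) lay above all WT arrays and on KO 3 68 (88.3%), against 61.3% and 64% of the band. On KO 2 it was 49 (63.6%), against 55.4% of the band. KO 2 was the lowest of the KO arrays for 63 genes (81.8%) and for 57.1% of the band.

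**Figure D3:**
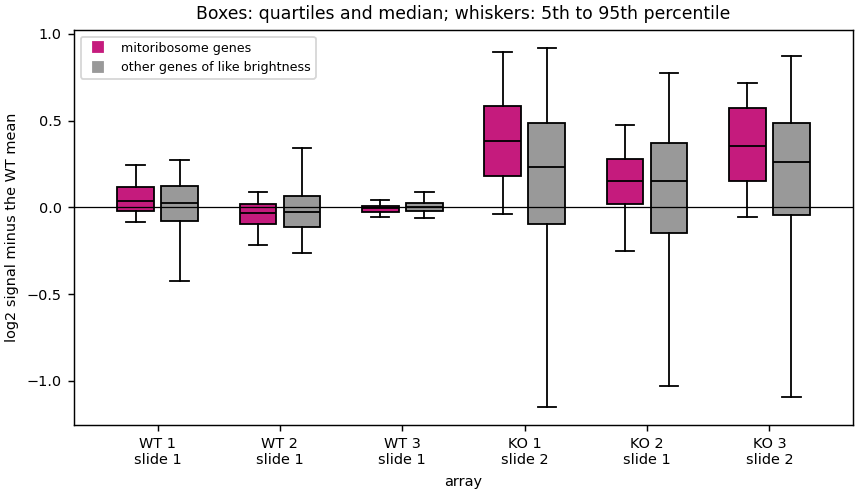
Log2 signal minus the WT mean on each array, for the 77 mitoribosome genes and for 3799 other genes of like brightness. The medians on KO 1 are 0.38 and 0.23, and those on KO 2 are both 0.15.

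With the slide as a block, which compares KO 2 with the WT arrays, 0 mitoribosome genes rose (5.08% of all genes and 6.32% of the band did) and Mrpl37 fell (4.68% of all genes did). At an unadjusted p under 0.05, 19 of the 77 (24.7%) differed in either direction, against 34.8% of all genes and 40.6% of the band. The median was 0.15, as in the band. Of the 77 genes 58 had a difference above 0. The 23 that rose, all with KO 2 above the WT arrays and so above 0 here by their choice, ran from 0.20 to 0.63, with adjusted p from 0.0555 (Mrpl54) to 0.235. On slide 1 alone 0 of all 22810 genes passed in either direction; at an unadjusted p under 0.05, 11 mitoribosome genes (14.3%) and 29.6% of all genes differed.

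The difference between KO and WT followed signal brightness over all genes. Over deciles of all genes by mean signal, the median ran from -0.29 in the dimmest to 0.29 in the brightest. Of the mitoribosome genes, 34 were in decile 9, where 11 rose (28.2% of that decile did), and 13 in the brightest, where 7 rose (36.3% did). In all, 51 of 77 lay above the median of the other genes in their own decile. With the slide as a block 39 did, and after cyclic loess, which removes a trend with brightness, 52.

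After cyclic loess 2 genes rose, Mrps28 (0.35, adjusted p = 0.0332) and Mrpl54 (0.36, adjusted p = 0.0336), where 10.8% of all genes and 11.2% of the band rose. Mrpl37 fell, where 12.5% of all genes did. At an unadjusted p under 0.05, 20 of the 77 (26%) differed in either direction, against 40% of all genes and 42.6% of the band. The median over the mitoribosome genes was 0.08, against 0.02 in the band, and 51 of 77 remained above 0.

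**Figure D4:**
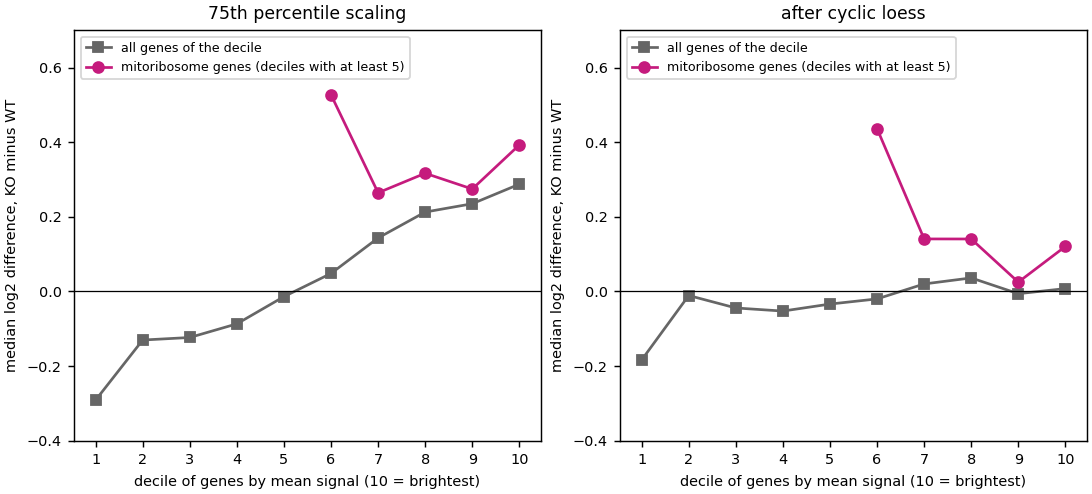
Median difference between KO and WT in each decile of genes by mean signal, for all genes and for the mitoribosome genes, as scaled (left) and after cyclic loess (right). The all-gene line rises from -0.29 to 0.29 on the left; on the right the mitoribosome genes and all genes are at 0.025 and -0.006 in decile 9, which holds 34 of the mitoribosome genes.

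A second probe was measured for 21 genes, and probes of 1 gene did not always move alike. The 2 probes had the same sign for 13 genes. Mrps7, a protein of the head of the small subunit, was at 2.72, 2.70 and 2.72 in WT and 3.08, 2.82 and 3.07 in KO on the brighter probe, a difference of 0.27. Its second probe was at 0.67, 1.04 and 0.78 in WT and -0.06, 0.05 and -0.16 in KO, and fell by 0.88 (adjusted p = 0.0108 over all probes). The brighter probe was higher and the second lower on every KO array.

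Mrps2, also of the small subunit, differed by -0.14 on the brighter probe and fell by 0.83 on the second (adjusted p = 0.0299 over all probes). Mrpl39 differed by 0.02 and -0.82 (adjusted p = 0.0533 for the second), and Mrpl15 by 0.61 and 0.01. Mrpl10, Mrpl4, Mrpl22, Mrpl41, Mrpl49 and Mrps18b had probes of opposite sign, none past the threshold on the second. After cyclic loess the brighter probes of Mrpl10, Mrpl4, Mrpl22 and Mrpl39 also differed by a value below 0, and none passed the test. In the other direction, Mrps26 differed by 0.27 on the brighter probe and rose by 0.65 on the second (adjusted p = 0.0105 over all probes). The difference between the probes of a gene was not tested. With the mean of a gene's probes, 22 genes (28.6%) rose and 2 fell. Of all genes 16.5% then rose and 12.1% fell, and of the band 24.5% rose and 10.9% fell.

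**Figure D5:**
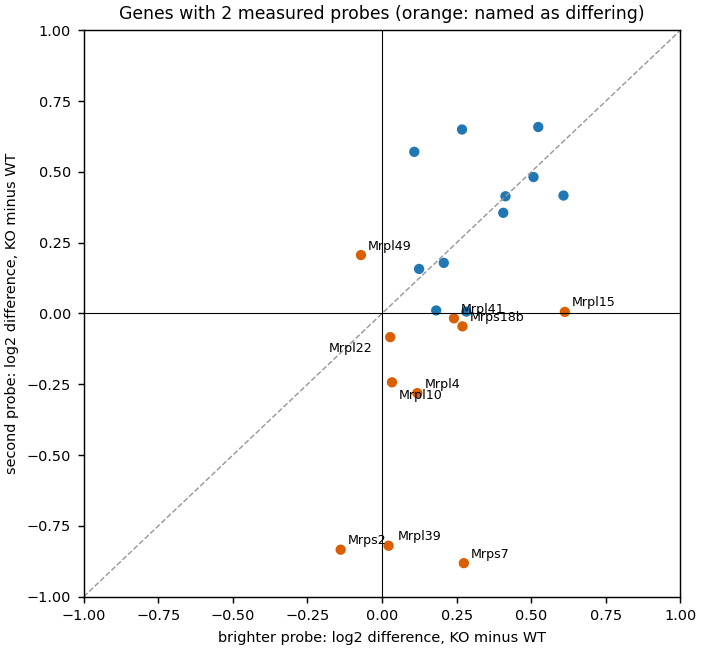
Difference between KO and WT on the second probe against that on the brighter probe, for the 21 genes with 2 measured probes; orange points have opposite signs or differ by over 0.5. Mrps7, Mrps2 and Mrpl39 lie between -0.82 and -0.88 on the second probe.

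Other genes of the same pathway were described from lists. Of 5 further mitoribosome proteins that the name rule does not take (Dap3, Chchd1, Gadd45gip1, Ptcd3 and Aurkaip1), 0 passed the test in either direction (2 at an unadjusted p under 0.05, both higher) and the median was 0.27. Of 31 measured genes for mitoribosome assembly and ribosomal RNA modification, 12 rose (38.7%) and 2 fell (median 0.34), where 19.5% of other genes of like brightness rose and 14.2% fell (median 0.10). Among them Trub2, a pseudouridine synthase, was at 0.36, 0.24 and 0.28 in WT and 1.01, 0.88 and 1.04 in KO, with the groups far apart. The 2 that fell were Mpv17l2, by 0.79 (adjusted p = 0.0356), and Eral1, by 0.46 (adjusted p = 0.0460). Of 16 mitochondrial translation factors 3 rose and 0 fell (median 0.29), of 20 mitochondrial aminoacyl-tRNA synthetases and partners 3 rose and 1 fell (0.29), and of 17 genes for expression of mitochondrial DNA 2 rose and 1 fell (0.29). Of genes of like brightness, 21.7%, 18.5% and 18.6% rose and 13.3%, 14.7% and 14.4% fell, in that order. Gatc, listed with the synthetases, fell by 1.58 (adjusted p = 0.0135), the smallest p of its list. Prorp, listed for expression of mitochondrial DNA, fell by 1.02 (adjusted p = 0.0369). No list was tested against those genes.

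The products of the mitoribosome join nuclear-encoded subunits in the respiratory chain. Of 76 nuclear genes for oxidative phosphorylation subunits, 40 rose (52.6%) and 0 fell (median 0.42), where 40.8% of other genes of like brightness (between the quartiles of the list) rose and 3.2% fell, with a median of 0.32. The list of cytosolic ribosomal proteins, taken by name, had 88 measured genes, of which 39 rose (44.3%) and 0 fell (median 0.34), where 40.4% of genes of like brightness rose and 2.95% fell (median 0.31). That name pattern also takes S6 kinases, and without them 39 of 81 rose (median 0.35). Of 11 regulators of mitochondrial biogenesis 6 rose and 0 fell, where 20.2% of genes of like brightness rose. The coactivator Ppargc1a rose by 1.54 (adjusted p = 0.00623), from 0.70, 0.15 and 0.39 to 1.94, 1.94 and 1.97, with KO 2 level with the other KO arrays.

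With the slide as a block, 2 of 76 oxidative phosphorylation genes, 4 of 88 cytosolic ribosomal protein genes and 1 of 31 assembly genes rose. After cyclic loess 7, 4 and 6 did. Of 16 translation factors the block gave 0 and loess 3 higher, and of 11 biogenesis regulators 1 and 4. Under the same block and loess 0 and 2 of the 77 mitoribosome genes rose. Over all genes 5.08% rose with the block and 10.8% after loess. With WT 3 and KO 3 both left out no list had a gene past the threshold, as for all 22810 genes.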

How the data were processed

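Per the file headers, the authors read each array with Agilent Feature Extraction 11.0.1.1; the deposited values are Cy3 intensity per spot, background-subtracted, and other columns are flags coded 0 or 1. No normalisation between arrays is recorded in the sources used here. No spot was saturated. From 178 to 236 outlier spots per array were dropped, the log2 intensity of a probe's spots was averaged, and the array's 75th percentile was subtracted. Probes well above background on at least 3 of 6 arrays were kept (27024), and the brightest probe per gene was used. Probes were named by transcript accession through RefSeq gene names of GRCm38.p6 (27234 probes matched, 12195 did not). WT and KO were compared with limma 3.58.1 in R 4.3.3 (lmFit and eBayes, two-sided, adjusted p threshold 0.05), reading files with data.table (version 1.17.8) and jsonlite (version 2.0.0); the script was tested on simulated data. The number of arrays limits the precision. An exact permutation test of 3 against 3 cannot go below 0.1.

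The genes, lists and tests were chosen with earlier results of these data known. The named genes were the 10 smallest p in each direction, those whose probes differ in sign or by over 0.5, those of the rarer direction, the brightest, the dimmest, the Mrps18 paralogs and some of known function, and up to 4 per list. The default array weights stopped before convergence, so a gene-by-gene version was added afterwards, as were the settings without WT 3 and KO 3 and without the S6 kinases. The replicate numbers were not taken to pair samples.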

Additional observations from a re-analysis of the deposited data

How the results depend on the processing

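Counts are of mitoribosome genes unless a list is named, and the cause of each change was not tested except where fewer samples or genes enter by construction. Quantile normalisation gave 7 higher and a median of 0.17; cytosolic ribosomal proteins 4 higher (0.050), oxidative phosphorylation 7 (0.13), synthetases 1, mitochondrial DNA expression 1 higher and 0 lower (0.16), assembly 0 lower, other mitoribosome proteins 1 lower (0.15). Median centring gave synthetases 6, mitochondrial DNA expression 4 and 0, translation factors 5 and other mitoribosome proteins 1 higher, and assembly 0 lower. Cyclic loess gave 2 higher and a median of 0.084, and list medians of 0.31 (biogenesis), 0.063 (cytosolic, 4 higher), 0.12 (synthetases, 1 higher and 2 lower), 0.070 (mitochondrial DNA expression, 1 and 0), 0.11 (translation factors), 0.14 (oxidative phosphorylation, 7 higher) and 0.034 (other mitoribosome proteins, 1 lower), with assembly 6 higher. Normexp with quantile normalisation gave 15 higher and a median of 0.17, cytosolic 6 (0.051), synthetases 0.16, mitochondrial DNA expression 0 lower (0.17), assembly 0 lower, oxidative phosphorylation 10 higher and 1 lower (0.13) and other mitoribosome proteins 1 and 1 (0.15). Requiring all 6 arrays above background left assembly 1 lower and other mitoribosome proteins 1 higher. No filter gave 7 higher, cytosolic 23, oxidative phosphorylation 26, synthetases 1, mitochondrial DNA expression 1 and 0, and assembly 0 lower. With trend and robust eBayes, translation factors had 5 and other mitoribosome proteins 1 higher. With median centring, the filter on all 6 arrays and this eBayes setting, 22.4%, 22.5% and 20.3% of all genes were higher. In the same order 9.88%, 12.9% and 12.5% were lower. The shares higher were 32.5%, 33.8% and 40.3% of the mitoribosome genes, and 34%, 30.9% and 35.1% of the band.

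Default array weights, which did not converge and called 12298 genes higher and 9946 lower of 22810, gave 71 higher and 5 lower; biogenesis 3 lower, cytosolic 82 and 6, synthetases 18 and 2, mitochondrial DNA expression 13 and 4, translation factors 13 and 3, assembly 25 and 6, oxidative phosphorylation 76 higher and other mitoribosome proteins 4 and 1. The gene-by-gene weights gave 59 and 3; biogenesis 2 lower, cytosolic 69 and 2, synthetases 14 and 2, mitochondrial DNA expression 12, translation factors 12, assembly 19 and 4, oxidative phosphorylation 72 and other mitoribosome proteins 3 and 1. The mean of a gene's probes gave 2 lower and mitochondrial DNA expression a median of 0.14. With the replicate number as a block 15 rose, 12 of them among the 23; cytosolic 21, synthetases 1, mitochondrial DNA expression 0 lower, assembly 0 lower. Deviations of same-numbered samples correlated at 0.11, 0.11 and 0.02. With the slide as a block 0 rose (median 0.15); biogenesis 1, cytosolic 4, synthetases 0 and 0 (0.11), mitochondrial DNA expression 0 and 0 (0.13), translation factors 0, assembly 1 (0.15), oxidative phosphorylation 2 (0.27), other mitoribosome proteins a median of 0.12. Slide 1 alone gave the same medians and 0 calls in every list. With WT 1 and WT 2 averaged, synthetases had 5 and translation factors 5 higher, and mitochondrial DNA expression and assembly 0 lower. With WT 3 and KO 3 both left out every count was 0. At an unadjusted p under 0.05, 3 mitoribosome genes (3.9%) then differed, against 16.4% of all genes and 17.4% of the band.

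Leaving out 1 array gave 0 to 46 higher and 0 to 1 lower; biogenesis 1 to 7 higher, cytosolic 0 to 45 higher and 0 to 2 lower, synthetases 0 to 8 and 0 to 1, mitochondrial DNA expression 0 to 6 and 0 to 1, translation factors 0 to 7, assembly 0 to 17 and 0 to 2, oxidative phosphorylation 1 to 57, other mitoribosome proteins 0 to 3 higher. Of all genes, 13.7% were higher with quantile normalisation, 15% with normexp, 8.06% with no filter, 12.8% with the replicate block and 40.9% with gene-by-gene weights, against 9.09%, 19.5%, 8.97%, 19.5% and 76.6% of the mitoribosome genes; the shares for the band were 16.3%, 22.6%, 16.5%, 18.8% and 59.1%.

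The sign changed in 50 cases, for 12 of 30 named mitoribosome genes, none past the threshold. Under quantile normalisation, loess and normexp, in that order, Mrpl10 was at -0.032, -0.11 and -0.028, Mrpl22 at -0.099, -0.22 and -0.17, Mrpl39 at -0.16, -0.24 and -0.090, Mrpl4 at -0.078, -0.15 and -0.050, Mrpl52 at -0.20, -0.20 and -0.11, and Mrpl58 at -0.13, -0.22 and -0.088. Mrps36 was at -0.051 (loess) and -0.035 (normexp). With the mean of a gene's probes, Mrpl10 was at -0.10, Mrpl22 -0.028, Mrpl39 -0.40, Mrpl4 -0.0815, Mrps7 -0.30 and Mrpl49 0.068 (0.049 with median centring). With the slide as a block and on slide 1 alone, Mrpl10 was at -0.049, Mrpl22 -0.27, Mrpl39 -0.030, Mrps18a -0.18, Mrps12 -0.089, Mrpl35 -0.11, Mrpl58 -0.074 and Mrps36 -0.087. With WT 3 and KO 3 left out, Mrpl10 was at -0.017, Mrpl22 at -0.0313 and Mrpl58 at -0.000143. Default array weights put Mrpl39 at -0.00317. Leaving out 1 array gave -0.062 to 0.18 for Mrpl22 and -0.011 to 0.048 for Mrpl39.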
